A study of Mus musculus with 23 samples.

Results

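Axon guidance ligands and receptors were followed in the nucleus accumbens as one set of genes. A gene belonged to the set when its annotated symbol began with Sema, Plxn, Nrp1, Nrp2, Epha, Ephb, Efna, Efnb, Robo, Slit1, Slit2, Slit3, Ntn or Unc5, or was Dcc. On the array 69 such genes had a probe annotated to a single gene, 179 probes in all. Of these, 47 genes (70 probes) passed the detection filter, a detection p-value under 0.01 on at least 5 arrays, out of 10138 genes that passed in all. The other 22 genes did not pass and have no measured difference here.

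Guidance proteins steer growing axons, and many of them stay in use in the adult brain, where they act on dendritic spines and synapses. They work in ligand and receptor pairs: semaphorins bind plexins and neuropilins, ephrins bind Eph receptor tyrosine kinases, Slits bind Robo receptors, and netrins bind Dcc and Unc5 receptors. Foxp2 is a forkhead transcription factor of striatal projection neurons that has been linked to neurite outgrowth, and cocaine, which blocks dopamine reuptake, changes the spines of these neurons.

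RNA came from tissue punches of the nucleus accumbens of C57BL6 mice, male and female, 1 h after an intraperitoneal injection, and labelled cRNA of each sample was read on 1 Illumina MouseWG-6 v2 array, a bead array of short gene probes. There were 6 arrays of Foxp2 S321X/+ heterozygotes given cocaine (15 mg/kg), 5 of S321X/+ heterozygotes given saline, 6 of wild-type littermates given cocaine (15 mg/kg) and 6 of wild-type littermates given saline. The heterozygotes carry a premature stop in 1 copy of Foxp2 in all cells, not in a chosen cell type. The labels call the samples biological replicates and give no age.

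Between 16102 and 17933 probes were detected per array. Foxp2 was measured by 3 detected probes. In heterozygotes after saline they gave 65.7%, 68.2% and 71.5% of wild type (two-sided exact permutation p = 0.00216, 0.00866 and 0.00216, adjusted 0.00649, 0.0173 and 0.00649). After cocaine they gave 61.0%, 61.6% and 69.2% of wild type (exact permutation p = 0.115, 0.126 and 0.188), and there the genotypes overlapped. Cell type markers also moved with the groups. A score of excitatory cortical markers (11 of 13 listed genes passed, Emx1 was detected on 0 arrays) ranged from -0.21 to 1.04 in heterozygous cocaine, -1.38 to -0.03 in heterozygous saline, -0.30 to 0.60 in wild-type cocaine and -0.64 to -0.01 in wild-type saline arrays. A score of striatal projection neuron markers (15 of 18 passed, Adcy5 was detected on 0 arrays) ranged from -0.70 to 0.02, 0.03 to 0.24, -0.26 to 0.18 and 0.12 to 0.32 in the same groups. Each score is the mean log2 deviation of its markers from the mean over all arrays. The 3 heterozygous cocaine arrays numbered 9, 16 and 19 stood apart on the first principal component, at 27.3, 31.7 and 29.2, where the next array lay at 18.8. A score of choroid plexus and ependyma markers rests on 2 of 7 listed genes. Ttr, Folr1, Otx2 and Foxj1 did not pass and are not in it. That score was -0.98, -0.76 and -0.54 on arrays 9, 16 and 19, against -0.25 to 0.44 on the other 20 arrays. Called guidance genes are given with and without these 3 arrays.

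Every family of guidance genes was represented among the genes detected. Of the semaphorins 14 of 19 passed, of the plexins and neuropilins 8 of 11, of the ephrins 5 of 8, of the Eph receptors 8 of 13, of the Slits 2 of 3, of the Robo receptors 3 of 3, of the netrins and netrin-Gs 4 of 5, and of the Unc5 and Dcc genes 3 of 7. Detection was complete, on all 23 arrays, for 36 of the 47. The other 11 were near the floor on some arrays. Sema4d, a membrane-bound ligand of plexin-B1, was detected on 5 arrays, 2 of heterozygous cocaine, 2 of heterozygous saline, 1 of wild-type cocaine and 0 of wild-type saline. Epha4, a receptor for ephrins of both classes, was detected on 7 arrays, Sema4g on 8, the membrane-anchored netrin-G Ntng2 on 9 and Sema6a on 10. Among the 22 genes that did not pass, 19 were detected on 0 arrays, among them Slit1, Plxna1, Plxna3, Plxna4, Ephb3 and Unc5d. Dcc, the attractive netrin receptor of midbrain dopamine axons, was detected on 3 arrays, 1 each of heterozygous cocaine, heterozygous saline and wild-type cocaine. The ephrin Efna1 was detected on 3 arrays, all of heterozygous cocaine. Unc50 and Unc5cl, which fit the letters of the rule but are not netrin receptors, were among those at 0 arrays.

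The first question was which guidance genes differed 1 h after cocaine, with both genotypes weighted equally (12 cocaine against 11 saline arrays). The Slit receptor Robo2, the ephrin-A receptor Epha5 and the secreted semaphorin Sema3a were higher after cocaine, and the Slit ligand Slit3 and the ephrin-B receptor Ephb1 were lower. These were 5 of the 47 genes (10.6%) at an adjusted p under 0.05, against 4.45% of all genes tested. By direction, 3 were higher, where 3.16% of all genes were, and 2 were lower, where 1.29% were. At an unadjusted p under 0.05 there were 15 of 47 (31.9%), against 19.2% of all genes. The median log2 difference of the 47 was 0.04, and that of all genes was -0.01. The set was chosen with earlier results of these data known, so its shares are a description and not a test. In these bulk samples, fewer cells of a type and less RNA per cell cannot be told apart. Between the same cocaine and saline arrays, 8 of the 11 excitatory markers were higher and 9 of the 15 striatal markers lower at an adjusted p under 0.05. At the same threshold 2 of 8 interneuron markers were higher and 1 of the 2 choroid plexus and ependyma markers was lower, and the part of these cells in the differences was not tested.

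**Figure D1:**
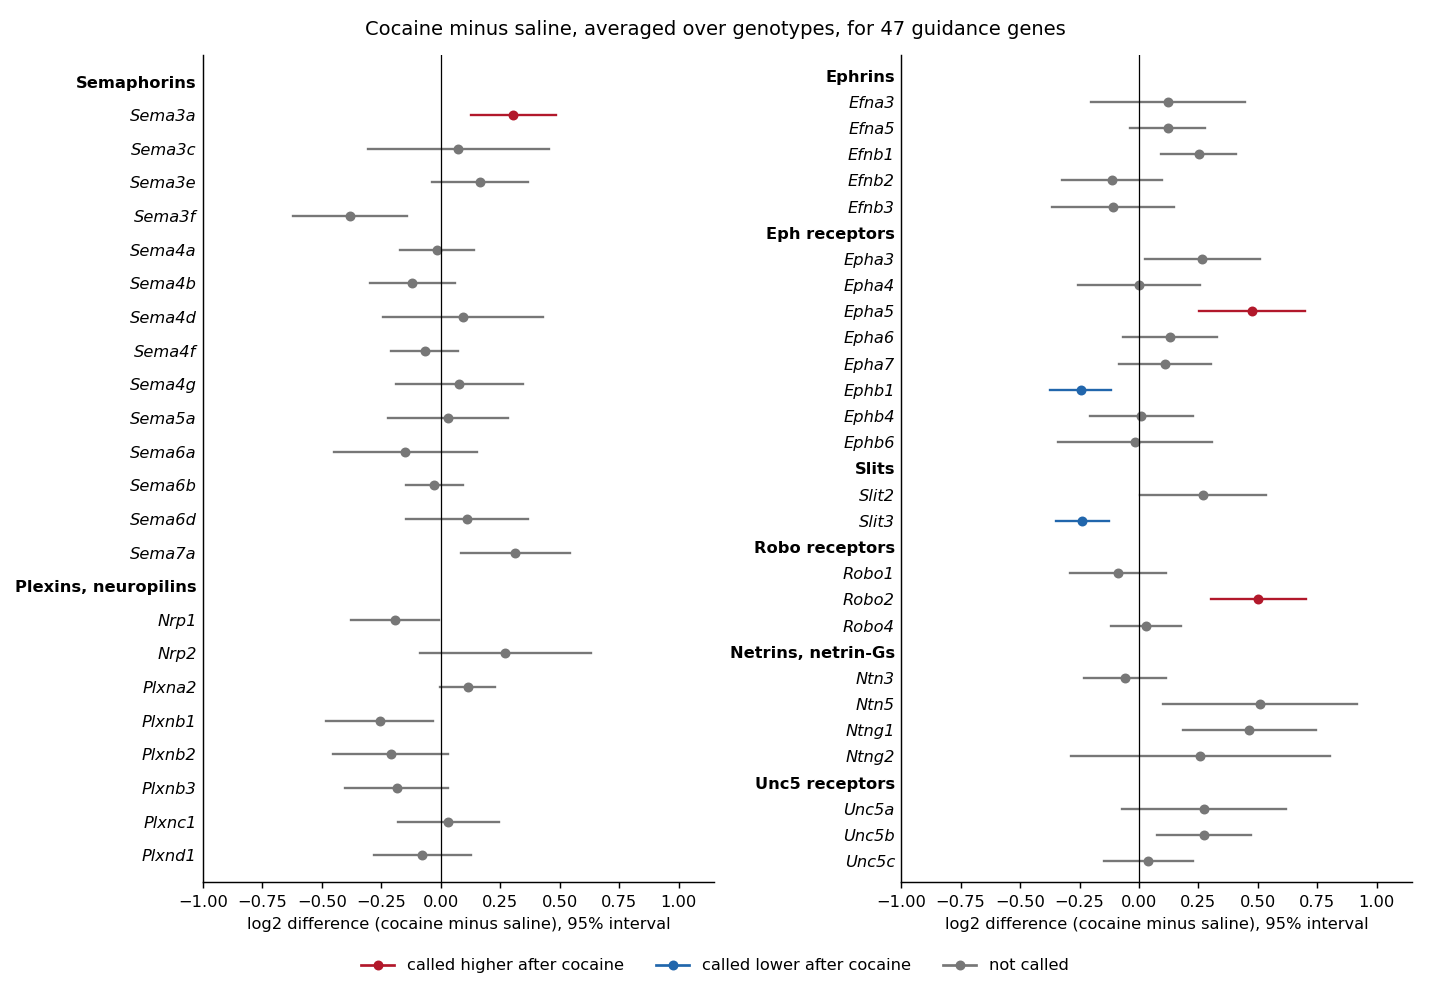
Log2 difference, cocaine minus saline averaged over genotypes, of the 47 guidance genes by family, with 95% intervals from limma (12 cocaine and 11 saline arrays). Red marks the 3 genes called higher after cocaine (Robo2 0.50, Epha5 0.48, Sema3a 0.30), blue the 2 called lower (Slit3 -0.24, Ephb1 -0.25), and grey the genes that were not called.

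Robo2, which holds axons and neuronal processes away from Slit, had the smallest p of the set. Its log2 intensity had a lowest, median and highest value of 9.25, 9.66 and 10.03 in heterozygous cocaine arrays, and lay at 8.50, 8.96, 9.04, 9.05 and 9.17 in heterozygous saline arrays. It was 9.33, 9.66 and 9.80 in wild-type cocaine arrays and 8.83, 9.36 and 9.44 in wild-type saline arrays. All 6 heterozygous cocaine arrays lay above all 5 heterozygous saline arrays, and 5 of 6 wild-type cocaine arrays did so above the wild-type saline arrays. The difference was 0.50 ± 0.10 (log2, SE; 95% interval 0.30 to 0.70), a fold of 1.42 (adjusted p = 0.00477). Robo2 had 2 other tested probes, which differed by 0.19 ± 0.10 and 0.17 ± 0.12 and did not pass (adjusted p = 0.316 and 0.505). Without the 3 arrays that stood apart the value was 0.42 (adjusted p = 0.0789). With the excitatory or the striatal marker score as a covariate it was 0.30 and 0.25 (adjusted p = 1.00 each).

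Slit3, a secreted ligand of Robo receptors, went the other way. Its lowest, median and highest log2 values were 10.01, 10.13 and 10.30 in heterozygous cocaine arrays, while the heterozygous saline arrays lay at 10.27, 10.52, 10.52, 10.55 and 10.59. In wild type they were 10.25, 10.38 and 10.44 after cocaine and 10.35, 10.50 and 10.65 after saline. All 12 cocaine arrays lay below the median of the 11 saline arrays, and 5 of the 12 lay below every saline array. Slit3 fell by 0.24 ± 0.05 (log2, SE; fold 0.848, 95% interval of the log2 difference -0.35 to -0.12; adjusted p = 0.0168). The size of the Slit3 difference did not shrink without the 3 arrays (-0.25, adjusted p = 0.0847), with the excitatory score (-0.25, adjusted p = 0.954) or with the striatal score (-0.26, adjusted p = 0.827), although none of these 3 passed. Slit2, the other Slit detected, differed by 0.27 ± 0.13 and did not pass (adjusted p = 0.271). Robo1, the second neuronal Slit receptor, differed by -0.09, and the endothelial receptor Robo4 by 0.03.

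**Figure D2:**
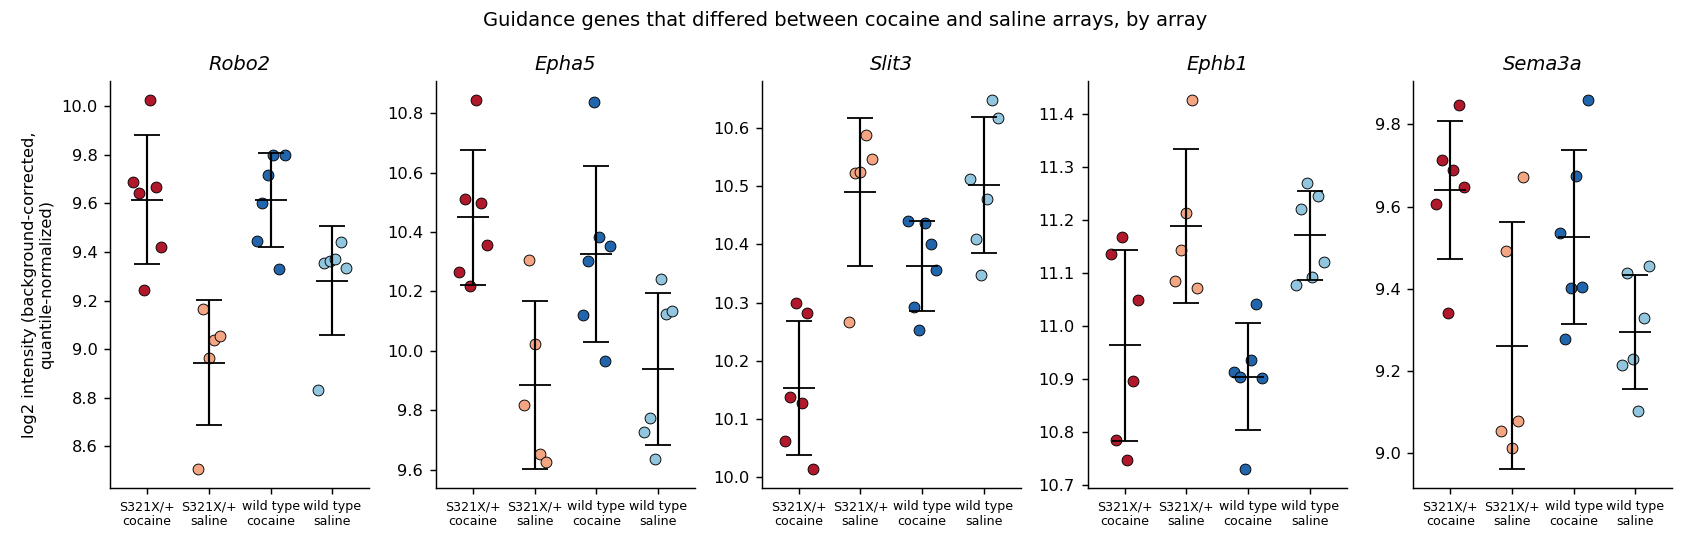
Log2 intensity of the 5 called guidance genes on each array (points), with the mean and SD of each group in black, for S321X/+ cocaine (n = 6), S321X/+ saline (n = 5), wild-type cocaine (n = 6) and wild-type saline (n = 6) arrays. Robo2 separates the heterozygous cocaine arrays (9.25 to 10.03) from the heterozygous saline arrays (8.50 to 9.17), and Ephb1 the wild-type cocaine arrays (10.73 to 11.04) from the wild-type saline arrays (11.08 to 11.27).

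In the Eph family Epha5 and Ephb1 moved in opposite directions. Epha5, which binds ephrin-A ligands in forebrain neurons, had a lowest, median and highest log2 value of 10.22, 10.43 and 10.85 in heterozygous cocaine arrays, and lay at 9.63, 9.65, 9.82, 10.02 and 10.31 in heterozygous saline arrays. In wild type the values were 9.97, 10.33 and 10.84 after cocaine and 9.63, 9.95 and 10.24 after saline. The groups overlapped, but all 12 cocaine arrays lay above the median of the saline arrays. The difference was 0.48 ± 0.11 (log2, SE; 95% interval 0.25 to 0.70; fold 1.39; adjusted p = 0.0143). Both other tested Epha5 probes were also higher, by 0.29 ± 0.08 (adjusted p = 0.0449) and 0.33 ± 0.10 (adjusted p = 0.0615, which did not pass). The Epha5 difference was 0.39 without the 3 arrays that stood apart (adjusted p = 0.178), 0.31 with the excitatory score and 0.17 with the striatal score (adjusted p = 1.00 each).

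Ephb1, a receptor for ephrin-B ligands with a part in synapse formation, ran lower after cocaine. Its lowest, median and highest log2 values were 10.75, 10.97 and 11.17 in heterozygous cocaine arrays, and it lay at 11.07, 11.08, 11.14, 11.21 and 11.43 in heterozygous saline arrays. In wild type they were 10.73, 10.91 and 11.04 after cocaine and 11.08, 11.17 and 11.27 after saline. All 6 wild-type cocaine arrays lay below all 6 wild-type saline arrays, and 4 of the 6 heterozygous cocaine arrays lay below the heterozygous saline arrays. The 4 comprised the 3 arrays that stood apart and array 23. Ephb1 fell by 0.25 ± 0.06 (log2, SE; 95% interval -0.37 to -0.12; fold 0.843; adjusted p = 0.0265). Without the 3 arrays the difference was -0.17 (adjusted p = 0.285), with the excitatory score -0.13 and with the striatal score -0.07 (adjusted p = 1.00 each). The call was also lost when any of 5 arrays was left out (heterozygous cocaine 9 and 16, wild-type cocaine 12, heterozygous saline 14 and 18), with adjusted p between 0.0516 and 0.0567. The other 6 Eph receptors lay between -0.02 for Ephb6 and 0.27 for Epha3, and none passed. Of the 5 ephrins, Efnb1 was the nearest to the threshold, with a difference of 0.25 ± 0.08 (adjusted p = 0.0631).

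Among the semaphorins 1 of 14 passed. Sema3a is a secreted repellent that signals through neuropilin-1 and plexin-A receptors. Its lowest, median and highest log2 values were 9.34, 9.67 and 9.85 in heterozygous cocaine arrays, while the heterozygous saline arrays spread over 9.01, 9.05, 9.08, 9.49 and 9.67. In wild type they were 9.28, 9.47 and 9.86 after cocaine and 9.10, 9.28 and 9.46 after saline. The groups overlapped in both genotypes. The difference was 0.30 ± 0.09 (log2, SE; 95% interval 0.13 to 0.48; fold 1.24; adjusted p = 0.0489). This call was the least stable of the 5: leaving out 1 array ended it in 18 of 23 cases, with values between 0.27 and 0.36 over all 23. The 5 arrays whose removal kept the call were number 11 (heterozygous cocaine), numbers 6 and 22 (heterozygous saline), number 10 (wild-type cocaine) and number 20 (wild-type saline). Without the 3 arrays that stood apart Sema3a differed by 0.25 (adjusted p = 0.349), with the excitatory score by 0.04 and with the striatal score by 0.13 (adjusted p = 1.00 each).

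Other semaphorins came close without passing. Sema3f, a secreted ligand of neuropilin-2 that limits spine number on cortical neurons, differed by -0.38 ± 0.12 (adjusted p = 0.0647), and its second probe by -0.46 ± 0.12 (adjusted p = 0.0409). Sema7a, a membrane-anchored semaphorin that binds Plxnc1 and integrins, differed by 0.31 ± 0.11 (adjusted p = 0.117). Of the 8 plexins and neuropilins none passed. The neuropilin Nrp1, co-receptor of Sema3a, differed by -0.19 ± 0.09 (adjusted p = 0.251) and the Sema4d receptor Plxnb1 by -0.26 ± 0.11 (adjusted p = 0.204). Among the netrin family Ntng1, a membrane-anchored netrin-G of axons, differed by 0.46 ± 0.14 (adjusted p = 0.0539), its 2 other probes by 0.41 ± 0.13 and 0.40 ± 0.13 (adjusted p = 0.0804 and 0.0947). The netrin Ntn5 was detected on 17 arrays, 5 of heterozygous cocaine, 4 of heterozygous saline, 5 of wild-type cocaine and 3 of wild-type saline. Its fitted difference of 0.51 ± 0.20 (adjusted p = 0.160) therefore rests partly on arrays at background. For the netrin receptor Unc5b the difference was 0.27 ± 0.10 (adjusted p = 0.112). Leaving out the 3 arrays that stood apart gave 0.46 for Ntng1, 0.19 for Sema7a and 0.34 for Ntn5. Of 15 genes with several tested probes, 0 had probes that went opposite ways at an unadjusted p under 0.05.

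The column names number the arrays, and the blocks of 6 consecutive numbers each held cocaine and saline arrays (2 and 4, 4 and 1, 2 and 4, 4 and 2). The labels do not say what the numbers stand for. The groups run along the numbers as they do along the samples, where all males come before all females. The blocks may therefore also divide the sexes. The 5 called genes kept their direction within each of the 4 blocks, which hold the same arrays that gave the calls. Efnb1, Epha3, Ntn5, Ntng1, Plxna2, Plxnb1, Sema3e, Sema3f and Slit2 did so too, and were not called. Cocaine minus saline was 0.60, 0.19, 0.71 and 0.36 for Robo2 and 0.29, 0.83, 0.61 and 0.41 for Epha5. It was 0.27, 0.20, 0.55 and 0.13 for Sema3a, -0.18, -0.10, -0.28 and -0.32 for Slit3, and -0.11, -0.37, -0.40 and -0.12 for Ephb1. With the blocks as a covariate Robo2, Epha5 and Slit3 still passed, at 0.53, 0.51 and -0.23, while Ephb1 (-0.24, adjusted p = 0.0689) and Sema3a (0.30, adjusted p = 0.0567) did not. Sema3f passed with the blocks (-0.48, adjusted p = 0.0243).

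**Figure D3:**
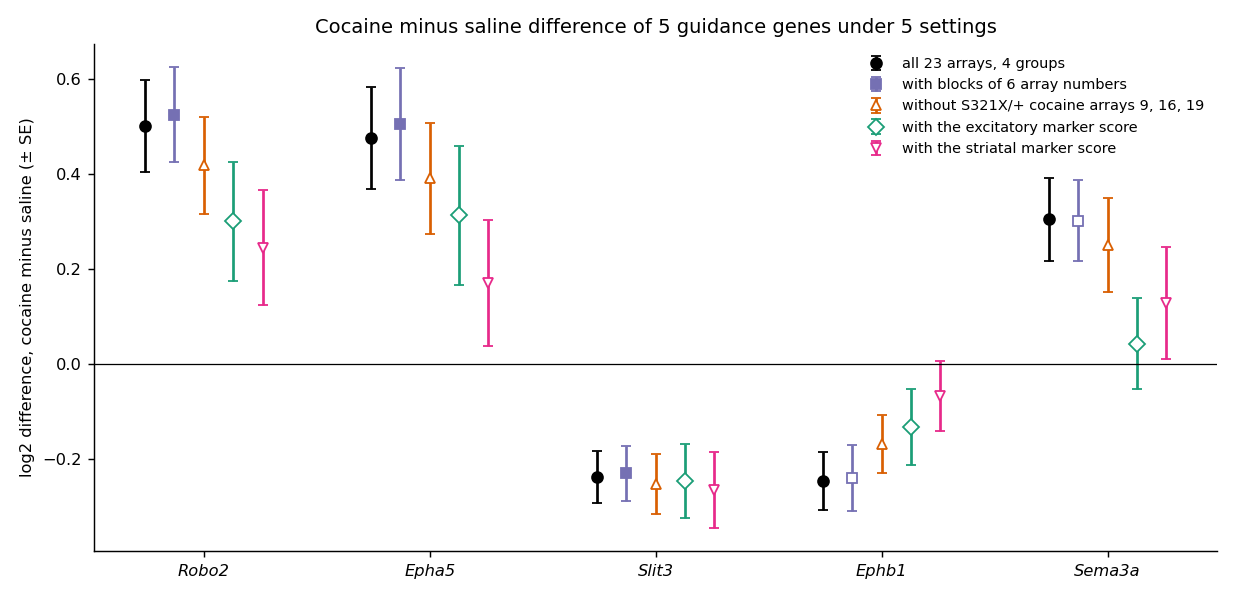
Log2 difference, cocaine minus saline averaged over genotypes, of the 5 called guidance genes under 5 settings (points, with SE as bars). Filled symbols passed an adjusted p under 0.05 and open symbols did not. Slit3 stays between -0.23 and -0.26 in all 5 settings, while the other 4 genes lie closer to 0 with either marker score (Sema3a at 0.04 with the excitatory score).

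The start sites of the 5 called genes are shown because these are the genes that moved between the injections. RefSeq (GRCm38.p6) lists a promoter window, 250 bases before to 50 bases after the annotated start, for 44 of the 47 genes, 57 windows in all. Each line below gives the 50 bases before and the 50 bases after a start, on the coding strand, with a match to an EGR motif in capitals.
Robo2, chr16:74411776-74411875, minus strand: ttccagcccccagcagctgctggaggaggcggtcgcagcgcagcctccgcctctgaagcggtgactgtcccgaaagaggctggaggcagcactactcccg
Robo2, chr16:75092721-75092820, minus strand: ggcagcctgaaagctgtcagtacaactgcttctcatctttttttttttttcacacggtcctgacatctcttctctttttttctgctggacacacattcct
Robo2, chr16:75447244-75447343, minus strand: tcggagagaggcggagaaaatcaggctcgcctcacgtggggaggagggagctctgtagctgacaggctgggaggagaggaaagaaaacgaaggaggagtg
Epha5, chr5:84417333-84417432, minus strand: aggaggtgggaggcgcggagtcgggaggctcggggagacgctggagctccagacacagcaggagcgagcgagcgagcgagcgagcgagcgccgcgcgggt
Sema3a, chr5:13396734-13396833, plus strand: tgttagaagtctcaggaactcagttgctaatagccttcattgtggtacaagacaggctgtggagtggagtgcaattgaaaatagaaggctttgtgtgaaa
Slit3, chr11:35121406-35121505, plus strand: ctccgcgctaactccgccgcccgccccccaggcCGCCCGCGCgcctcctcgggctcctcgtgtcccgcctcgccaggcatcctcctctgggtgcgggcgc
Ephb1, chr9:102354644-102354743, minus strand: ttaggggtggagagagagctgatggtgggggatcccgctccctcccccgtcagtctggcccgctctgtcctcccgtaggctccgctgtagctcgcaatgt

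The windows differed in base composition. GC made up 78.3% of the full Slit3 window, which holds 41 CpG, 64.3% of that of Epha5 (30 CpG), 55.7% of that of Ephb1 (14 CpG) and 41.3% of that of Sema3a (2 CpG). The 3 Robo2 windows had 65.0%, 45.0% and 53.3% GC, so they range from CpG-rich to a pyrimidine-rich start. Motifs were searched on both strands in the full windows. The cAMP response element TGACGTCA was in 0 of the 57 windows and in 1.79% of 32851 promoters. The AP-1 motif TGANTCA was in 2 windows, those of Sema4d and Sema6b, and in 7.81% of all promoters. The forkhead motif TGTTTAC was in 0 windows and in 3.65% of all promoters. The EGR motif GCGNGGGCG was in 11 windows (19.3%), among the called genes in that of Slit3 only, and in 5.55% of all promoters. The median GC content was 64.0% in the 57 windows and 52.7% in all promoters, so the GC-rich EGR motif was searched in windows of unlike composition. A match or its absence in these windows says nothing of binding.

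Within each genotype fewer guidance genes passed. In heterozygotes (6 cocaine against 5 saline arrays) 2 of the 47 were called, against 2.68% of all genes. Robo2 was higher by 0.67 ± 0.14 (log2, SE; 95% interval 0.38 to 0.96; adjusted p = 0.0140), in a comparison where 1.95% of all genes were higher. Slit3 fell by 0.34 ± 0.08 (95% interval -0.50 to -0.17; adjusted p = 0.0278), where 0.73% of all genes were lower. Epha5 differed by 0.56 ± 0.16 and did not pass (adjusted p = 0.0557). The 2 other tested Robo2 probes, which did not pass averaged over genotypes, are not given for heterozygotes. At an unadjusted p under 0.05 there were 15 of 47, against 16.5% of all genes. Without the 3 arrays that stood apart Robo2 differed by 0.51 (adjusted p = 0.540) and Slit3 by -0.36 (adjusted p = 0.396), on 3 cocaine arrays. Fitted on the heterozygous arrays alone, neither passed (adjusted p = 0.0712 for Robo2 and 0.132 for Slit3). With the excitatory or the striatal score Robo2 differed by 0.40 and 0.32, and Slit3 by -0.35 and -0.37 (adjusted p = 1.00 each). The Slit3 call was also lost without any of 6 arrays (heterozygous cocaine 9 and 16, heterozygous saline 6, 14, 18 and 22), with adjusted p between 0.0507 and 0.0859.

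In wild type (6 against 6 arrays) limma called 0 of the 47 guidance genes, and 0.109% of all genes. At an unadjusted p under 0.05 there were 6 of 47, against 8.58% of all genes. Ephb1 had the smallest p of the set there, with a difference of -0.27 ± 0.08 (95% interval -0.44 to -0.09; adjusted p = 0.436). The netrin receptor Unc5b followed with 0.36 ± 0.13 (adjusted p = 0.505) and Epha5 with 0.39 ± 0.15 (adjusted p = 0.517). Robo2 differed by 0.33 and Slit3 by -0.14. The difference between the genotypes in the cocaine effect was itself tested as an interaction. It was 0.34 ± 0.19 for Robo2 and -0.20 ± 0.11 for Slit3, neither of which passed (adjusted p = 0.927 each), so the cocaine effects of both genes were not shown to differ between heterozygotes and wild type.

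No guidance gene was called in any comparison of heterozygotes with wild type by limma, nor was any other gene. Averaged over injections 0 of 47 passed (0% of all genes), with 2 of 47 at an unadjusted p under 0.05, against 4.73% of all genes. After saline 0 passed (0% of all genes), with 3 of 47 at an unadjusted p under 0.05 against 3.71%. After cocaine 0 passed (0% of all genes), with 4 of 47 at an unadjusted p under 0.05 against 6.65%. The interaction gave 0 (0% of all genes), with 3 of 47 at an unadjusted p under 0.05 against 4.81%. The medians of the 47 were 0.03 averaged over injections, 0.02 after saline, 0.03 after cocaine and 0.03 for the interaction. Those of all genes lay between -0.01 and 0.01.

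After saline the smallest p belonged to Sema4f, a membrane semaphorin of neurons and glia. It lay at 8.27, 8.32, 8.35, 8.49 and 8.68 in heterozygous saline arrays, against a lowest, median and highest of 7.99, 8.15 and 8.40 in wild-type saline arrays. Of the 5 heterozygous arrays 2 lay above all wild-type arrays. The log2 difference was 0.25 with an SE of 0.10 (95% interval 0.05 to 0.46, adjusted p = 0.999). Robo2 lay at 8.50 to 9.17 in heterozygous and 8.83 to 9.44 in wild-type saline arrays, a difference of -0.34 ± 0.14 (adjusted p = 0.999). A score of septal neuron markers (4 of 5 listed passed), made like the other scores, also differed between these arrays. It ranged from 0.09 to 0.42 in heterozygous saline and from -0.29 to 0.26 in wild-type saline arrays. Its part in the genotype differences after saline was not tested.

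Plxnd1, the plexin that binds Sema3e and shapes thalamic and striatonigral connections, had values of 9.40, 9.60, 9.71, 9.73 and 9.74 in heterozygous saline arrays. In wild-type saline arrays its lowest, median and highest were 9.66, 9.96 and 10.13. All 5 heterozygous arrays lay below the wild-type median. The difference after saline was -0.31 ± 0.14 (adjusted p = 0.999) and averaged over injections it was -0.25 ± 0.10 (adjusted p = 1.00). Averaged over injections Sema4f differed by 0.15 ± 0.07 and Slit3 by -0.11 ± 0.05 (adjusted p = 1.00 each). The Plxnd1 ligand Sema3e differed by 0.02 after saline.

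After cocaine the ephrin-B ligand Efnb2 had the smallest p. Its lowest, median and highest log2 values were 9.51, 9.69 and 10.03 in heterozygous cocaine arrays and 9.92, 10.13 and 10.43 in wild-type cocaine arrays. It lay at 9.65, 9.94, 10.03, 10.09 and 10.71 in heterozygous saline arrays, and at 9.68, 10.08 and 10.25 in wild-type saline arrays. Of the 6 heterozygous cocaine arrays 5 lay below all wild-type cocaine arrays. The log2 difference of Efnb2 after cocaine was -0.41 with an SE of 0.14 (95% interval -0.70 to -0.12, adjusted p = 0.654). Leaving out the 3 arrays gave -0.29, and the striatal score as a covariate gave -0.26. The interaction was -0.47 ± 0.20 (adjusted p = 0.927).

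Efna5, an ephrin-A ligand of Epha5, had 10.29, 10.52 and 10.78 in heterozygous cocaine arrays and 9.98, 10.25 and 10.57 in wild-type cocaine arrays as lowest, median and highest. The heterozygous saline arrays lay at 10.13, 10.19, 10.26, 10.30 and 10.35, and the wild-type saline arrays at 10.06, 10.23 and 10.63. Efna5 differed by 0.28 ± 0.11 between the genotypes after cocaine (adjusted p = 0.691), with an interaction of 0.32 ± 0.15 (adjusted p = 0.927). Leaving out the 3 arrays gave 0.27 and 0.31. Slit3 differed by -0.21 ± 0.08 after cocaine (adjusted p = 0.671) and by -0.01 after saline. The Slit3 value after cocaine was -0.24 when the 3 arrays were left out. Ephb6, an Eph receptor without kinase activity, had the second smallest p for the interaction, 0.71 ± 0.31 (adjusted p = 0.927), which was 0.42 when the 3 arrays were left out. It ran from 6.36 over a median of 6.87 to 7.32 in heterozygous cocaine arrays and lay at 5.82, 6.22, 6.77, 6.92 and 6.93 in heterozygous saline arrays. Wild-type cocaine arrays had a lowest, median and highest of 5.82, 6.56 and 6.88, and wild-type saline arrays of 6.52, 6.76 and 7.62. These groups overlapped throughout, and Ephb6 was detected on 21 of 23 arrays.

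**Figure D4:**
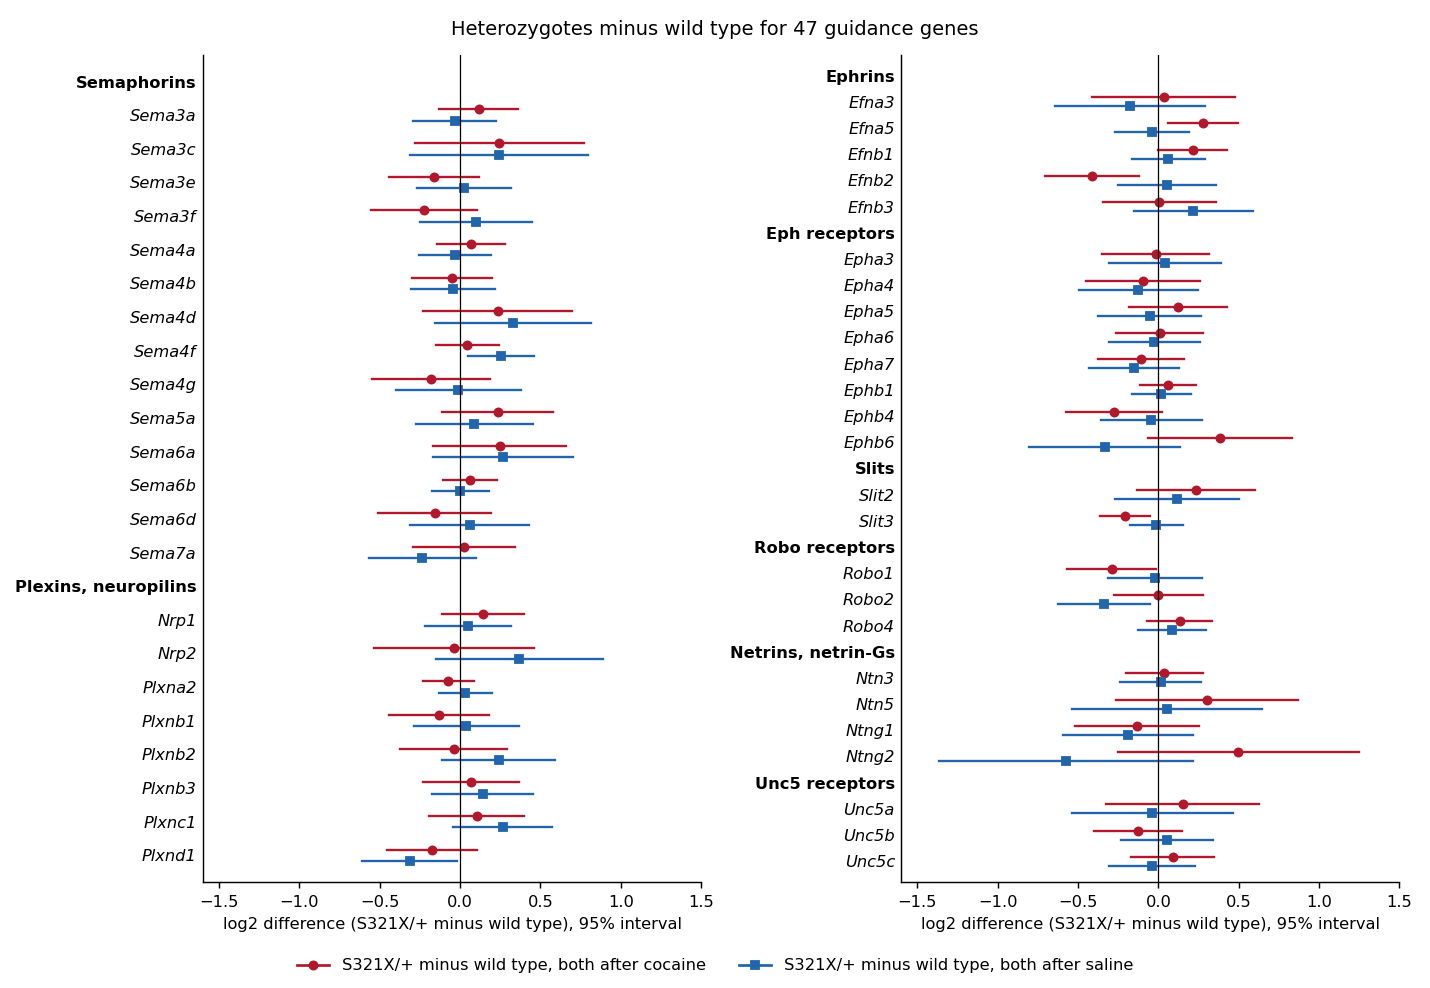
Log2 difference, S321X/+ minus wild type, of the 47 guidance genes by family with 95% intervals from limma, after cocaine (red circles, 6 against 6 arrays) and after saline (blue squares, 5 against 6 arrays). Most intervals include 0, none of the genes was called, and the interval of Efnb2 after cocaine runs from -0.70 to -0.12.

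Since marker scores moved with the groups, the guidance genes were also set against them within groups, as a slope over all 23 arrays in the same limma model. Along the excitatory cortical score 2 of the 47 were called, both with a positive slope, against 3.18% of all genes called and 2.4% called with a positive slope. At an unadjusted p under 0.05 there were 11 of 47, against 14.4% of all genes. Epha7, an ephrin-A receptor of cortical neurons, was higher by 0.39 ± 0.09 (SE) per unit of the score (adjusted p = 0.0217), and Sema3a by 0.35 ± 0.09 (adjusted p = 0.0356). The Epha7 slope is that of 1 of its 4 tested probes, and the slopes of the others are not given. Sema7a had a slope of 0.41 ± 0.12 and did not pass (adjusted p = 0.0745). The heterozygous saline array 14 had the lowest score, -1.38, and the lowest Epha7 level, 8.93. Without it the slopes were 0.31 for Epha7 (adjusted p = 0.150) and 0.38 for Sema3a (adjusted p = 0.0659). Epha7 was also not called without heterozygous saline array 6 (adjusted p = 0.0522) or heterozygous cocaine array 9 (adjusted p = 0.0502), and Sema3a lost its call without any of 8 arrays (heterozygous cocaine 11 and 19, heterozygous saline 6 and 14, wild-type cocaine 10 and 24, wild-type saline 15 and 20), with slopes between 0.32 and 0.38. Leaving out the 3 heterozygous cocaine arrays ended both calls, with slopes of 0.45 for Epha7 (adjusted p = 0.104) and 0.40 for Sema3a (adjusted p = 0.150).

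Along the striatal projection neuron score 1 of the 47 was called, with a positive slope, against 3.12% of all genes called and 1.66% called with a positive slope. At an unadjusted p under 0.05 there were 11 of 47, against 15.5% of all genes. The gene was Sema3f, at 1.17 ± 0.24 per unit (adjusted p = 0.00947), with the slope of its second probe not given here. Its lowest, median and highest log2 values were 8.27, 8.84 and 9.58 in heterozygous cocaine arrays, the lowest 3 being the arrays that stood apart. It lay at 9.22, 9.25, 9.42, 9.47 and 9.60 in heterozygous saline arrays, at 8.80, 9.08 and 9.30 in wild-type cocaine arrays and at 9.03, 9.26 and 9.63 in wild-type saline arrays. The slope was 0.86 without the 3 arrays (adjusted p = 0.978) and 1.04 without array 16 alone (adjusted p = 0.0643). With the striatal score as a covariate the cocaine difference of Sema3f was 0.05, and without the 3 arrays it was -0.20. Sema7a had a slope of -0.94 ± 0.26 (adjusted p = 0.0541) and Ephb1 of 0.49 ± 0.15 (adjusted p = 0.0805). The part of cell content in the cocaine differences was not tested beyond these values.

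**Figure D5:**
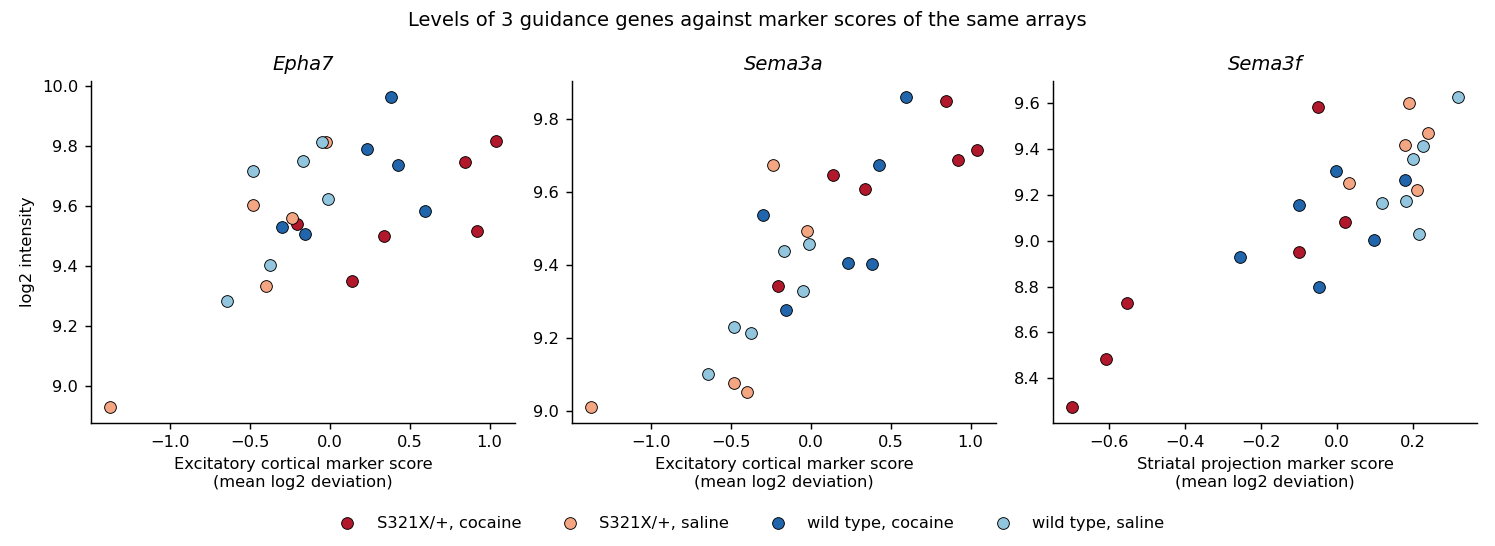
Log2 intensity of Epha7 and Sema3a against the excitatory cortical marker score, and of Sema3f against the striatal projection marker score, with 1 point per array and the 4 groups in colour. Epha7 and Sema3a are lowest on the heterozygous saline array with the lowest score (-1.38), and Sema3f is lowest on the 3 heterozygous cocaine arrays with the lowest striatal scores (down to -0.70).

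Sex was compared in the authors' processed values, in which 42 of the 47 genes are present (12 females against 11 males). In the order of the samples all males come before all females, and the groups run in the same order along the array numbers. A difference between the sexes therefore cannot be told apart from one along that order. None of the 42 passed in limma, against 1.82% of 9274 genes, and 7 of 42 had an unadjusted p under 0.05, against 19% of all genes. Sema3e, the ligand of Plxnd1, averaged 8.82 ± 0.23 in females and 8.58 ± 0.23 in males (log2, SD), a difference of 0.24 ± 0.09 (SE; adjusted p = 0.133). Slit2 averaged 9.17 ± 0.32 in females and 8.87 ± 0.34 in males (0.31 ± 0.12, adjusted p = 0.155). Epha3, another ephrin-A receptor, averaged 7.18 ± 0.35 in females and 6.90 ± 0.28 in males (0.29 ± 0.12, adjusted p = 0.171). The levels of the sexes overlapped in all 3 genes.

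The wider guidance pathway was described through 64 detected genes of 90 listed, comprising adhesion receptors, growth cone effectors and cytoskeletal regulators. Between cocaine and saline 4 of them were called higher and 1 lower (7.81%), against 4.45% of all genes (3.16% higher and 1.29% lower), and their median difference was 0.02. The list was chosen with earlier results of these data known, so its shares are a description and not a test of the pathway. Pdzrn3, a ubiquitin ligase of synapses and Wnt signalling, was higher by 1.10 ± 0.17 (adjusted p = 0.000993). Lingo1, a Nogo receptor partner, was higher by 0.44 ± 0.11 (adjusted p = 0.0210), Crmp1, a mediator of semaphorin 3A signals, by 0.43 ± 0.12 (adjusted p = 0.0407), and the adhesion molecule Chl1 by 0.43 ± 0.12 (adjusted p = 0.0462). Vav3, a guanine nucleotide exchange factor downstream of Eph receptors, fell by 0.36 ± 0.10 (adjusted p = 0.0379). Without the 3 arrays that stood apart only Pdzrn3 of the 64 passed (1.01, adjusted p = 0.0227), with Lingo1 at 0.35, Crmp1 at 0.46, Chl1 at 0.40 and Vav3 at -0.28. With either marker score 0 of the 64 passed in limma, and Lingo1 differed by 0.06 with the excitatory score. Calls over all genes fell too without the 3 arrays and with either score. In heterozygotes alone 3 of the 64 were called (4.69%), against 2.68% of all genes: Pdzrn3 (1.69, adjusted p = 0.00123) and Lingo1 (0.66, adjusted p = 0.0269) were higher and Vav3 was lower (-0.56, adjusted p = 0.0356). Without the 3 arrays 0 of the 64 were called there. In wild type alone 0 of the 64 passed in limma, against 0.109% of all genes. There 5 of the 64 had an unadjusted p under 0.05, against 8.58% of all genes. Between the genotypes 0 of the 64 passed in limma (0% of all genes). In those comparisons 3 to 5 of the 64 had an unadjusted p under 0.05, against 3.71% to 6.65% of all genes.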

How the data were processed

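Per the labels' protocols, total RNA was extracted from tissue punches with the mirVana kit and biotin-labelled cRNA was made with the Illumina TotalPrep-96 kit. The authors deposited a table of probe intensities that were not normalized, from which background had been subtracted (values below 0 occur), with a detection p-value per probe and array, as deposited. The authors also deposited processed log2 values of 16253 probes, per the file headers 1 column per sample.

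The neqc function corrected these intensities for background and made their quantiles equal (offset 16, negative controls inferred from the detection p-values), in limma 3.58.1 under R 4.3.3. Probes with a detection p-value under 0.01 on at least 5 of 23 arrays were kept, 18509 of 45281. A gene was represented by its kept probe with the highest mean log2 value. A linear model with the 4 groups (19 residual degrees of freedom) was fitted with limma over all kept probes, p-values were moderated by eBayes and adjusted by Benjamini-Hochberg over all of them, and the threshold for a call was an adjusted p of 0.05. All adjusted p-values in the text come from limma. The model was tested on simulated data.

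The columns of the intensity table name genotype, injection and an array number and not the animal, so they were assigned to groups only. Sex was therefore tested in the authors' processed log2 values. The number of arrays limits the precision, and no source says which animals shared a cage or a litter.

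The genes named are all called ones of a comparison or, where fewer than 3 were called, also those with the smallest p, plus called genes of the wider pathway list. Genes were not ranked by level, since levels of different probes are not comparable. The members and lists were chosen with earlier results of these data known. Alternatives were the offset, no background correction, the detection filter, the authors' values (also with sex or the replicate number), all probes, array weights, robust moderation, the compared groups alone, array blocks, marker scores as covariates, and leaving out arrays.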

Additional observations from a re-analysis of the deposited data

Results flagged for a closer look

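Within groups of 5 or 6 arrays, 40 sets of values of the named guidance genes were examined for an array far from the others, and 3 were found. Chance alone marks about 1 in 20 such groups. The wild-type saline array 2 had the lowest Robo2 of its group, 8.83 (log2), where the nearest array had 9.33. The heterozygous saline array 1 had a Slit3 of 10.27, where the nearest had 10.52. The wild-type saline array 2 also had the highest Ephb6 of its group, 7.62, where the nearest had 6.88.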

How the results depend on the processing

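Of the 47 guidance genes, 5 were called between cocaine and saline averaged over genotypes. The count was 8 when only probes detected on all 23 arrays were kept, 8 with array blocks as a random block, and 0 without the 3 heterozygous cocaine arrays that stood apart, 0 with the excitatory and 0 with the striatal marker score. Leaving out 1 array gave 3 to 10. Over all genes the 451 calls became 49 without the 3 arrays, 8 with the excitatory score and 12 with the striatal score. In heterozygotes the 2 calls became 4 in the authors' values with sex as a covariate, 4 with the random block, 0 when the compared groups were fitted alone, 0 without the 3 arrays and 0 with either score, and 1 to 5 when 1 array was left out. Along the excitatory score the 2 calls became 1 with no detection filter, 0 without the 3 arrays, and 0 to 2 when 1 array was left out. Along the striatal score the 1 call became 2 with an offset of 50, 2 with detection on all arrays, 2 with an intensity trend and robust moderation, 0 without the 3 arrays, and 0 to 2 when 1 array was left out. Between the sexes the count of 0 became 1 when all probes were counted, and 0 to 1 when 1 array was left out. The cause of these changes was not tested. Calls over all genes are given for only 3 of these settings. The other counts therefore cannot be read as particular to the guidance genes. The replicate numbers in the labels were not taken to pair the samples: same-numbered samples correlated at 0.07 on average over 33 pairs (-0.26 to 0.42), against -0.01 for different numbers, and 8 of 23 samples were closest to their own number. The 6 pairs of number 1 all correlated above 0, at 0.14 to 0.42. With the replicate block 6 genes were called between cocaine and saline and 2 in heterozygotes, both fitted on the authors' values. The sex differences of Slit2 and Epha3 reversed with the replicate block, to -0.11 and -0.21, where only replicate number 3 holds both sexes. The comparisons of heterozygotes with wild type, the interaction and cocaine in wild type gave 0 calls in limma whichever 1 array was left out.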
